A study of Arabidopsis thaliana with 24 samples.

Results

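Transcripts of jasmonate synthesis enzymes and of JAZ repressors were followed in sorted root epidermal cells of 8 Arabidopsis thaliana mutant lines. The set was given by locus code with the suffix _at, as the rows of the deposited table are named, and held 10 genes, 5 for synthesis (LOX3, LOX4, AOS, AOC1 and OPR3) and 5 for repressors (JAZ1, JAZ5, JAZ6, JAZ8 and JAZ10). Of these, 9 were among the 21440 genes measured, and AOC1 (AT3G25760_at) was not analysed here. The rule names loci and uses no threshold on measured values, but the set was drawn up with earlier results of these data known. AOS was lowest in wer and highest in cpc and in the arrays labelled cpc ttg2, and JAZ8 and JAZ10 fell with it between cpc and wer, calls that each ended when 1 of certain arrays was left out. OPR3 followed another order, lowest in egl3 and highest in myb23 and gl3.

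Jasmonates are lipid hormones made from plastid fatty acids and known for their part in the response to wounding. The lipoxygenases LOX3 and LOX4 oxidise the fatty acid, allene oxide synthase (AOS) and allene oxide cyclase (AOC) form the ring intermediate in the plastid, and OPR3 reduces it in the peroxisome. JAR1 then joins jasmonate to isoleucine, and the conjugate makes the receptor COI1 bind JAZ proteins, which are degraded and release MYC2 and related factors. JAZ genes are themselves among the targets of MYC2, so that their transcripts are widely read as a jasmonate response. In Arabidopsis, JAZ proteins are also known to bind the bHLH factors GL3 and EGL3, and RHD6 in root hair growth.

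Each line had 3 arrays, 24 in all, labelled as biological replicates. The single mutants were wer-1 and myb23-1 (R2R3 MYB factors), gl3-1 and egl3-1 (bHLH factors), cpc-1 and try-82 (single-repeat MYB proteins) and ttg2-1 (a WRKY factor), and the eighth line was labelled cpc-1 ttg2-1. Every line also carried WER::GFP, a fluorescent marker under the WEREWOLF promoter that labels developing epidermis and lateral root cap. Seedlings were 5 days old when the last 2 mm or so of each root were taken, and fluorescent cells were sorted, so that cutting and sorting were steps shared by all lines. The labels give no wild type array here and no accession background for the lines, so each comparison is between mutants. In such pooled cells, fewer cells of a type and less RNA per cell cannot be told apart.

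All levels are log2 values after robust multi-array averaging (RMA), and means are given with the SD over n = 3 arrays. Levels of different genes are not compared, since each rests on its own probes. Array medians ran from 6.47 to 6.91. In the arrays labelled cpc ttg2, TTG2 stood at 8.25 ± 0.54, against 4.35 ± 0.44 in ttg2 and 5.65 to 7.26 in the other lines, which goes against the label, so directions drawn from these arrays carry this limit. Of the 7 mutated genes 6 were measured (GL3 is not analysed here), and TTG2 in ttg2 was the only 1 of them with its lowest line mean in its own single mutant. TRY was highest in try (10.71 ± 0.55), and where probes lie relative to each lesion was not analysed here. Over all genes, 4 arrays had a median correlation with the others under 0.94, the 3 labelled cpc ttg2 and cpc replicate 3 (0.90 to 0.94). The epidermal markers averaged 8.67 to 10.09 per array over 7 genes, and lateral root cap markers 8.62 to 9.99 over 6. Ground tissue markers averaged 3.63 to 5.54 over 7 genes, from CO2 (2.84 over lines) to ESB1 (6.79). Stele markers averaged 4.82 to 5.86 over 7 genes, from TMO5 (3.43) to AHK4 (10.02). The lowest values of RMA are not zero, so no marker is at 0. Centring each array on its median raised the median gene by 0.19 to 0.34 in the arrays labelled cpc ttg2 against the other lines. The share of called genes that were higher in them went from 41.4% to 68.7% against egl3 and from 41.6% to 58.2% against wer.

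**Figure D1:**
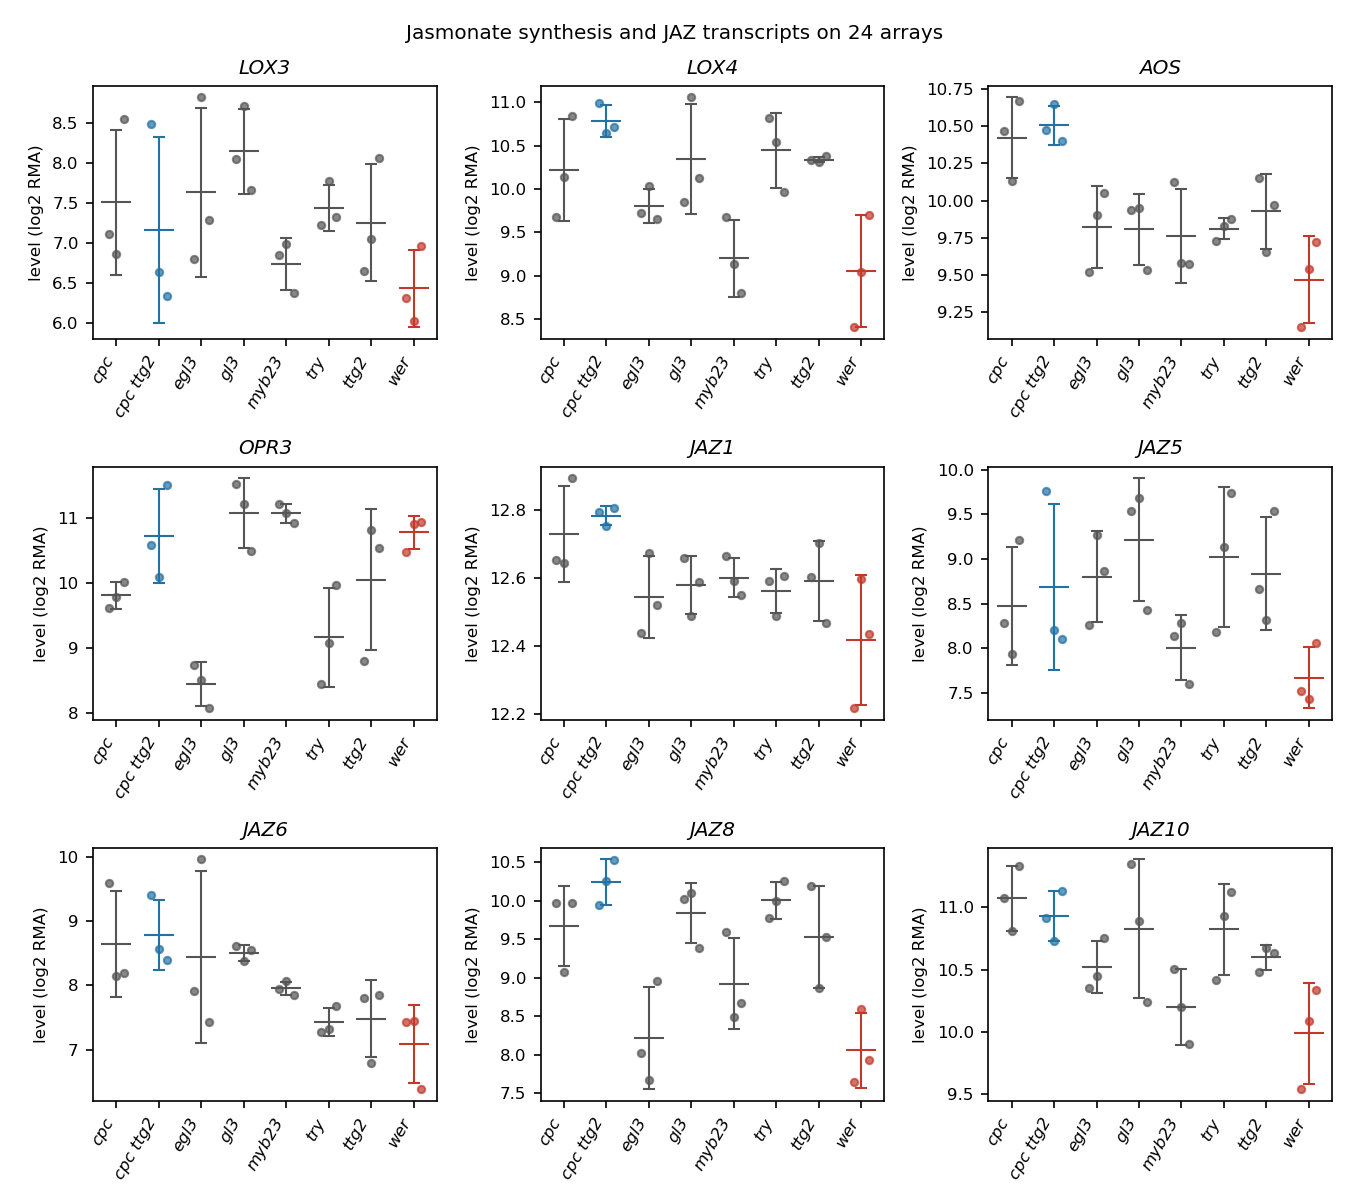
Level (log2 RMA) of the 9 measured genes on each of the 24 arrays, by line, with the y axis scaled to each gene. Points are arrays, horizontal bars are line means and whiskers are SD over 3 arrays. The wer arrays (red) lie low for AOS, JAZ8 and JAZ10 but not for OPR3, and the blue points are the arrays labelled cpc ttg2.

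Among the 8 lines, 5 of the 9 genes differed in the moderated F test (limma, BH-adjusted p under 0.05 over all genes), where 27% of all genes did. These were the synthesis genes LOX4, AOS and OPR3 and the repressor genes JAZ8 and JAZ10. LOX3, JAZ1, JAZ5 and JAZ6 did not pass (adjusted p = 0.264, 0.472, 0.159 and 0.0623). Over all 28 pairs of lines, 28 of 252 gene by pair tests passed (11.1%, against 6.65% over all genes). The 7 pairs with the arrays labelled cpc ttg2 gave 16 of these calls in 63 tests (25.4%), close to the 23.2% of all genes there. Among the other 21 pairs 12 of 189 tests passed (6.35%), against 1.12% over all genes. Pairs with wer gave 12 of 63 (19%), against 5.16%. In these calls wer was the lower line in 10 and the higher in 2, which were OPR3 against egl3 and against try. By the same tally egl3 was the lower line in all 9 of its calls. The arrays labelled cpc ttg2 were the higher in all 16 of theirs. Of the 12 calls without the arrays labelled cpc ttg2, 7 were in pairs with wer, out of 54 tests (13%, against 1.68% over all genes). Without the arrays labelled cpc ttg2, the F test over the other lines passed 2 of the 9 genes, OPR3 and JAZ8, which also passed without the 4 arrays that stood apart. The shares of all genes that passed in these fits were not counted, so the fall from 5 cannot be set against all genes.

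The wer line had the lowest of the 8 line means in 8 of the 9 genes, all but OPR3. Over all genes wer was lowest for 12.2%. The arrays labelled cpc ttg2 were highest in 5 of the 9, LOX4, AOS, JAZ1, JAZ6 and JAZ8, where they were highest for 30.3% of all genes. These counts were made after the values were seen and carry no test. With each array centred on its median, wer was lowest in 7, since JAZ1 then left the count. Without wer replicate 1 it was lowest in 5, and LOX4, JAZ8 and JAZ10 left the count. In no gene did lines next to each other in the order of means differ in the fit (0 of 7 neighbouring pairs for each of the 9 genes).

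**Figure D2:**
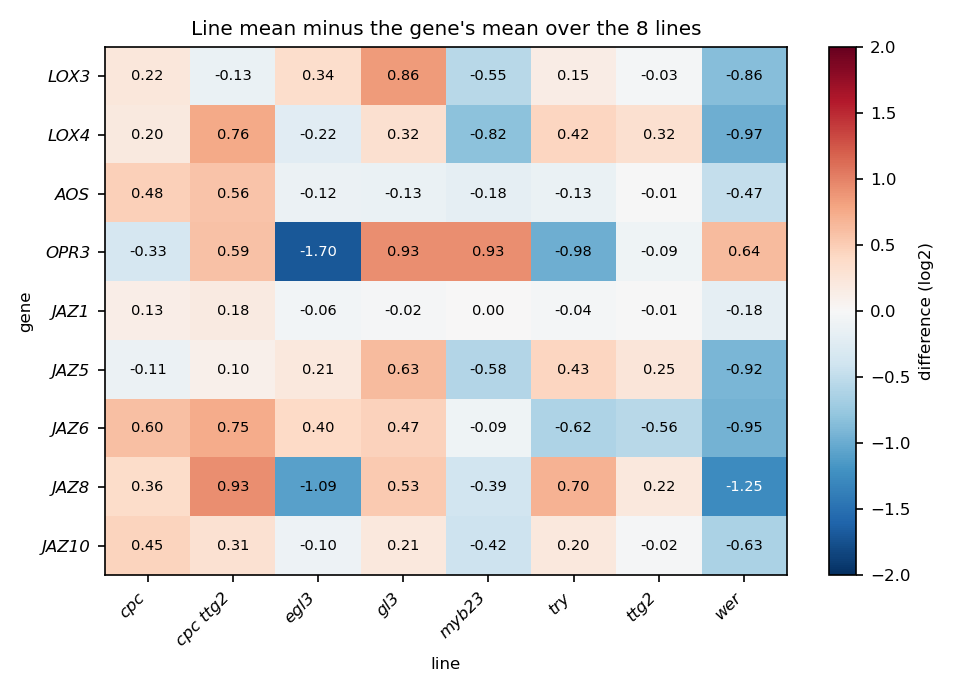
Line mean minus the mean over the 8 lines (log2) for each gene, printed in each cell and coloured from -2 (blue) to 2 (red). The wer column is below zero for every gene except OPR3, and OPR3 has its lowest cells in egl3 and try.

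LOX4 (AT1G72520_at), a plastid lipoxygenase active in roots and wounded tissue, differed among the lines (F test, limma, adjusted p = 0.0071). Its wer arrays read 8.41, 9.04 and 9.70, its myb23 arrays 9.67, 9.13 and 8.79, and the arrays labelled cpc ttg2 10.99, 10.65 and 10.71. All arrays labelled cpc ttg2 lay above all arrays of wer and of myb23. In the order of means, wer (9.05 ± 0.65) and myb23 (9.20 ± 0.44) were followed by egl3, cpc, ttg2, gl3, try (10.45 ± 0.44) and cpc ttg2 (10.78 ± 0.18). The ttg2 arrays lay within 0.03 (SD) of 10.34. The arrays labelled cpc ttg2 were 1.73 ± 0.35 (SE) above wer (adjusted p = 0.00188, 3.32-fold), a pair in which 26% of all genes passed, and 1.58 above myb23 (adjusted p = 0.00323). Both calls held in each of 6 runs without 1 of the arrays compared. The next calls rested on single arrays. LOX4 was 1.39 higher in try than in wer (adjusted p = 0.0252), which ended without try replicate 1, try replicate 2 or wer replicate 1 (adjusted p up to 0.176) and in a fit of these 6 arrays alone (0.103). Against egl3, the arrays labelled cpc ttg2 were 0.98 higher (0.0368), which held only without egl3 replicate 2 among those runs (adjusted p up to 0.0985). Without the arrays labelled cpc ttg2 the F test no longer passed (adjusted p = 0.0727).

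LOX3 (AT1G17420_at), a lipoxygenase that acts beside LOX4, varied more within lines than LOX4, with an SD pooled over lines of 0.75 against 0.45. Its array values ran from 6.03 to 8.82, with line means from 6.44 ± 0.48 in wer to 8.15 ± 0.53 in gl3. None of the 28 pairs passed in limma. Single arrays set the spread, such as egl3 replicate 2 at 8.82 beside 6.80 and 7.29, and cpc ttg2 replicate 1 at 8.50 beside 6.65 and 6.35.

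AOS (AT5G42650_at), the cytochrome P450 that forms the allene oxide, differed among the lines (F test, limma, adjusted p = 0.0127). The cpc arrays read 10.47, 10.13 and 10.67, the arrays labelled cpc ttg2 10.47, 10.65 and 10.40, and the wer arrays 9.15, 9.54 and 9.72. Every cpc array and every array labelled cpc ttg2 lay above every wer array. The remaining 5 lines had means between 9.76 ± 0.31 (myb23) and 9.93 ± 0.25 (ttg2), with egl3, gl3 and try between them. The arrays labelled cpc ttg2 exceeded wer by 1.03 ± 0.22 (SE; adjusted p = 0.0022, 2.05-fold), which held in each of 6 runs without 1 array. They also exceeded gl3, where 25% of all genes passed, and myb23, try and egl3, by 0.68 to 0.74 (adjusted p from 0.0161 to 0.0242). Each of these 4 calls ended without cpc ttg2 replicate 2 (adjusted p up to 0.0962), and with it, by line, without myb23 replicate 2 or 3, gl3 replicate 3, try replicate 2 or egl3 replicate 1. In fits of only the arrays compared, the calls against egl3 (adjusted p = 0.0702) and gl3 (0.0928) ended. Without the arrays labelled cpc ttg2 the AOS F test gave an adjusted p of 0.188.

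OPR3 (AT2G06050_at), the peroxisomal reductase, had the widest range of line means of the 9 genes, 2.63. Its egl3 arrays read 8.74, 8.50 and 8.07, its try arrays 8.44, 9.08 and 9.96, and its cpc arrays 9.61, 9.78 and 10.01. The gl3 arrays read 11.52, 11.21 and 10.48, the myb23 arrays 11.21, 11.08 and 10.92, and the wer arrays 10.48, 10.91 and 10.94. The 3 egl3 arrays lay below every array of cpc, gl3, myb23 and wer. The ttg2 arrays were split, with 8.80 beside 10.80 and 10.52, and the arrays labelled cpc ttg2 read 10.57, 10.08 and 11.51. The F test gave an adjusted p of 0.00158 (limma) and passed in every alternative run, without the arrays labelled cpc ttg2 and without any single array included.

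Between the related bHLH mutants, OPR3 was lower in egl3 than in gl3 by 2.63 ± 0.45 (SE; 6.21-fold, adjusted p = 0.00423), where 0.658% of all genes passed. It was likewise -2.63 in egl3 against myb23 (adjusted p = 0.00411), where 0.634% passed, and the arrays labelled cpc ttg2 exceeded egl3 by 2.29 (0.000857), where 34.9% passed. These calls, 3 in all, held in each of 6 runs without 1 array. The difference from wer (-2.34, adjusted p = 0.00987, 1.32% of all genes) ended only without egl3 replicate 3 (0.0531). OPR3 in try was lower than in myb23 (1.91, adjusted p = 0.0356), wer (-1.62, 0.0425) and the arrays labelled cpc ttg2 (1.56, 0.0133). The first of these held only without try replicate 3 and the second only without try replicate 3 (adjusted p up to 0.159 and 0.144 in the other runs), and the third ended without cpc ttg2 replicate 3 or try replicate 1 (up to 0.087). In fits of only the arrays compared the second and the third ended (adjusted p = 0.0741 and 0.0527). Of all genes 1.43%, 5.1% and 30.8% passed in these pairs. Between wer and cpc OPR3 was 0.97 higher, with no overlap of arrays, but did not pass (adjusted p = 0.287). In all these pairs the named lesion cannot be told apart from other differences between the lines, whose background the labels do not give.

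The repressor gene JAZ8 (AT1G30135_at) encodes a JAZ protein that lacks the usual degron and resists jasmonate-induced degradation. The F test passed at an adjusted p of 0.00163 (limma) and in every run without a single array. Its wer arrays read 7.64, 8.60 and 7.93 and its egl3 arrays 8.02, 7.68 and 8.96. The try arrays read 9.77, 9.99 and 10.25, the cpc arrays 9.97, 9.08 and 9.97, and the arrays labelled cpc ttg2 9.94, 10.25 and 10.53. Arrays of wer and egl3 overlapped each other, and all 6 lay below every array of cpc, try and cpc ttg2. The order of means ran wer (8.06 ± 0.49), egl3 (8.22 ± 0.66), myb23 (8.92 ± 0.59), ttg2, cpc, gl3, try (10.01 ± 0.24) and cpc ttg2 (10.24 ± 0.29).

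JAZ8 was 1.95 ± 0.39 (SE) higher in try than in wer (3.86-fold, adjusted p = 0.00546), a pair in which 5.1% of all genes passed. The arrays labelled cpc ttg2 exceeded wer by 2.18 and egl3 by 2.03 (adjusted p = 0.000805 and 0.000674). These 3 calls held in each of 6 runs without 1 array. The others did not. JAZ8 was lower in egl3 than in try (-1.79, adjusted p = 0.0206), which ended without egl3 replicate 1 or 2 or try replicate 2 or 3 (up to 0.119) and with just the arrays of that pair fitted (0.116). It was 1.46 higher in cpc than in egl3 (0.0477, where 2.83% of all genes passed), which ended without cpc replicate 1 or 3 or egl3 replicate 1 or 2 (up to 0.22), and also without the arrays labelled cpc ttg2 (0.0626) and with only these 6 arrays (0.266). Against myb23, the arrays labelled cpc ttg2 were 1.32 higher (0.0176), where 26.7% of all genes passed, which ended without cpc ttg2 replicate 3 or myb23 replicate 2 or 3 (up to 0.0899). The gl3 and ttg2 arrays also lay above all wer arrays, with differences of 1.78 and 1.47 that did not pass (adjusted p = 0.107 and 0.0885).

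JAZ10 (AT5G13220_at), a repressor gene strongly induced by jasmonate and used as a reporter of it, had a narrower range of line means, 1.08. The wer arrays read 9.54, 10.09 and 10.34, the myb23 arrays 10.51, 10.20 and 9.90, and the cpc arrays 11.08, 10.81 and 11.33. All cpc arrays lay above all arrays of wer and myb23. The F test passed with an adjusted p of 0.0386 (limma) but ended in 13 of the 24 runs without 1 array (adjusted p up to 0.0975), and in the fit with the replicate number as a block (0.0525). The arrays that ended it were cpc replicates 1 and 3, all 3 of cpc ttg2, gl3 replicate 2, myb23 replicates 2 and 3, try replicates 2 and 3, ttg2 replicate 1 and wer replicates 1 and 2. For JAZ10 the arrays labelled cpc ttg2 exceeded wer by 0.94 ± 0.27 (SE; adjusted p = 0.0154), which ended without cpc ttg2 replicate 3 or wer replicate 1 (up to 0.0796) and in a fit of these 6 arrays (0.0548).

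JAZ6 (AT1G72450_at) passed in 2 pairs but not in the F test. Its wer arrays read 7.44, 7.45 and 6.39, its try arrays 7.28, 7.32 and 7.68 and the arrays labelled cpc ttg2 9.40, 8.57 and 8.39. The egl3 arrays spanned 7.44 to 9.96, with replicate 2 the highest. The arrays labelled cpc ttg2 were 1.69 ± 0.51 (SE) above wer (limma, adjusted p = 0.0185, ended without cpc ttg2 replicate 1 or wer replicate 3, up to 0.0966) and 1.36 above try (adjusted p = 0.0467, ended in all 6 runs without 1 array, up to 0.162). The F test passed without egl3 replicate 2 or egl3 replicate 3 (adjusted p from 0.012), with arrays centred on their medians (0.0368) and with dim genes left out (0.0485). JAZ5 (AT1G17380_at) and JAZ1 (AT1G19180_at) passed in none of the 28 pairs. JAZ5 line means ran from 7.67 ± 0.34 in wer to 9.22 ± 0.69 in gl3. JAZ1 varied least, with all 24 arrays between 12.22 and 12.89 and line means within 0.37 of each other. The highest value in the data was 13.62, and whether a level near the top narrows the spread was not tested.

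Between wer, in which epidermal cells take hair fate, and cpc, in which few do, AOS, JAZ8 and JAZ10 fell, and none of the 9 genes passed as higher in wer. Of the 9 genes, 3 passed as lower in wer (limma, adjusted p under 0.05), against 1.46% of all genes, and 0 as higher, against 1.6% (3.05% in either direction). AOS was lower by -0.95 ± 0.22 (SE; adjusted p = 0.0192, 1.93-fold), JAZ8 by -1.62 ± 0.39 (0.0279, 3.06-fold) and JAZ10 by -1.08 ± 0.27 (0.0332, 2.12-fold). The median over the 9 genes was -1.08, and over all genes 0.01. Arrays of wer lay wholly below those of cpc for 5 genes, AOS, JAZ1, JAZ6, JAZ8 and JAZ10, against 8.56% of all genes. Values for the genes that did not pass were -1.17 for LOX4 (adjusted p = 0.0768), -1.08 for LOX3 (0.36), -1.55 for JAZ6 (0.104), -0.81 for JAZ5 (0.446), -0.31 for JAZ1 (0.29) and, in the other direction, 0.97 for OPR3 (0.287), whose wer arrays all lay above its cpc arrays.

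The 3 calls rested on few arrays. No member passed once cpc replicate 3 or wer replicate 1 was left out, nor in a fit of the 6 arrays alone (adjusted p from 0.15 to 0.22). AOS then reached an adjusted p of up to 0.112, JAZ8 ended as well when cpc replicate 1 or wer replicate 3 was left out (up to 0.13), and JAZ10 when cpc replicate 1 was (up to 0.166), while the differences in these runs stayed between -0.79 and -1.91. LOX4 passed with cpc replicate 1 or wer replicate 3 left out (from 0.0412). Passing genes were not counted over all genes in these runs. Markers of several cell types moved with this comparison. Of 7 epidermal markers 3 passed, GL2 at -2.36 (adjusted p = 0.008), RHD6 at 2.33 (0.000856) and COBL9 at 2.20 (0.0431), and their mean per array was 9.44 to 9.93 in wer and 8.67 to 9.87 in cpc. Of 7 stele markers 1 passed, XCP1 at -0.90 (0.0287), with means of 4.92 to 4.95 in wer and 4.93 to 5.42 in cpc. For the lateral root cap, the mean over 6 genes was 8.68 to 9.22 in wer and 9.58 to 9.90 in cpc, 1 of the 6, EXI1, was lower in wer (-1.66, adjusted p = 0.0015), and none of the 7 ground tissue markers passed. The part of these cell types in the result was not tested. The 25S rRNA signal was 8.43 to 10.16 in wer and 8.04 to 9.72 in cpc. The heat shock mean over 6 genes was 8.03 to 8.79 in wer, 7.30 to 7.47 in cpc and 9.31 to 9.77 in the arrays labelled cpc ttg2, and its part was not tested.

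The rest of the pathway was read from 6 further gene lists. Of 15 measured genes of other synthesis steps (20 listed), JAR1 (AT2G46370), the conjugating enzyme, fell between cpc and wer by 1.02 (limma, adjusted p = 0.0289), from 10.46 to 9.44. FAD3 (AT2G29980), a fatty acid desaturase, rose by 0.66 (0.0408), and the other 13 did not pass, with a list median of -0.14. JAR1 ended when any of cpc replicates 1 and 3 and wer replicates 1 and 3 was left out (up to 0.136). It also ended with arrays centred on their medians (0.0546). Of the 6 runs without 1 array of the pair, FAD3 held only without cpc replicate 1 (up to 0.198 in the others). It also ended without the arrays labelled cpc ttg2 (0.054). JAR1 and FAD3 both ended in a fit of the 6 arrays alone (0.235 and 0.305) and without the 4 arrays that stood apart (0.173 and 0.225). In the F test 4 of the 15 passed, where 27% of all genes did, among them FAD3 (adjusted p = 0.00204) and the lipoxygenase gene LOX6 (AT1G67560, 0.0136). LOX6 was lowest in egl3 (8.72) and highest in the arrays labelled cpc ttg2 (9.97), and its call ended without cpc ttg2 replicate 2 (0.0599) and without all 3 of those arrays (0.305). The F test call of FAD3 ended only without the 4 arrays that stood apart (0.0536).

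Of the 6 other JAZ genes measured (8 listed), 3 passed in the F test, where 27% of all genes did. JAZ9 (AT1G70700, adjusted p = 0.00176) had line means from 7.22 ± 0.64 in wer to 10.48 ± 0.46 in the arrays labelled cpc ttg2, and JAZ7 (AT2G34600, 0.0207) from 5.09 in wer to 7.32 in gl3. Both calls ended without the arrays labelled cpc ttg2 (adjusted p = 0.161 and 0.0717). Between wer and cpc 0 of the 6 passed in limma, and the median was -0.36. An unadjusted p under 0.05 was found for 2, against 16.4% of all genes. JAZ9 stood at -1.58 (adjusted p = 0.065) and passed without wer replicate 2 (0.0384) and with dim genes left out (0.048).

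COI1 (AT2G39940), the receptor, had line means from 6.67 to 7.26 (F test, limma, adjusted p = 0.496), and MYC2 (AT1G32640), the main factor released by JAZ loss, from 11.28 to 11.49 (0.9). Of the 11 genes of this list, 1 passed in the F test, where 27% of all genes did. It was MYC4 (AT4G17880, 0.0399), a relative of MYC2, lowest in egl3 at 4.67. That call ended in 11 of the 24 runs without 1 array (up to 0.129), among them those without any of the 3 egl3 arrays, any of the 3 myb23 arrays, cpc replicate 2, cpc ttg2 replicate 1, try replicate 3, or ttg2 replicate 2 or 3, and after quantile normalization (0.104). Between wer and cpc 0 of 11 passed in limma, with 1 unadjusted p under 0.05 (16.4% of all genes) and a median of -0.04.

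Genes of jasmonate turnover had a median of -0.83 between wer and cpc over 10 measured members (11 listed). None passed in limma, and 6 had an unadjusted p under 0.05, where 16.4% of all genes did. These included CYP94B1, which was higher in wer (1.03 ± 0.46 SE, adjusted p = 0.26), while the others were lower. CYP94B3 (AT3G48520), a hydroxylase that inactivates the conjugate, was chosen after its value was seen, and stood at -2.44 (adjusted p = 0.0683), from 8.66 in cpc to 6.22 in wer. In the F test 2 of the 10 passed, where 27% of all genes did. These were CYP94B1 (AT5G63450, 0.0119), highest in wer at 9.39, and ILL6 (AT1G44350, 0.0141), an amidohydrolase gene, highest in the arrays labelled cpc ttg2 at 9.39. Both calls ended without the arrays labelled cpc ttg2 (0.116 and 0.231). Among 11 response genes (13 listed) 0 passed in the F test, where 27% of all genes did. Between wer and cpc 0 of them passed in limma, against 3.05% of all genes, with a median of -0.56. An unadjusted p under 0.05 in the pair was found for 2, against 16.4% of all genes. Of 8 touch and wound genes 3 passed in the F test, against 27% of all genes. Among them were the repressor genes ERF4 (AT3G15210, 0.00112) and ZAT10 (AT1G27730, 0.0119), both highest in the arrays labelled cpc ttg2 (11.13 and 11.19). Both calls ended without those arrays (0.194 and 0.122). Between wer and cpc all 8 were below zero, as were 49.3% of all genes, 4 had an unadjusted p under 0.05, against 16.4% of all genes, and 0 passed in limma, with a median of -0.68.

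**Figure D3:**
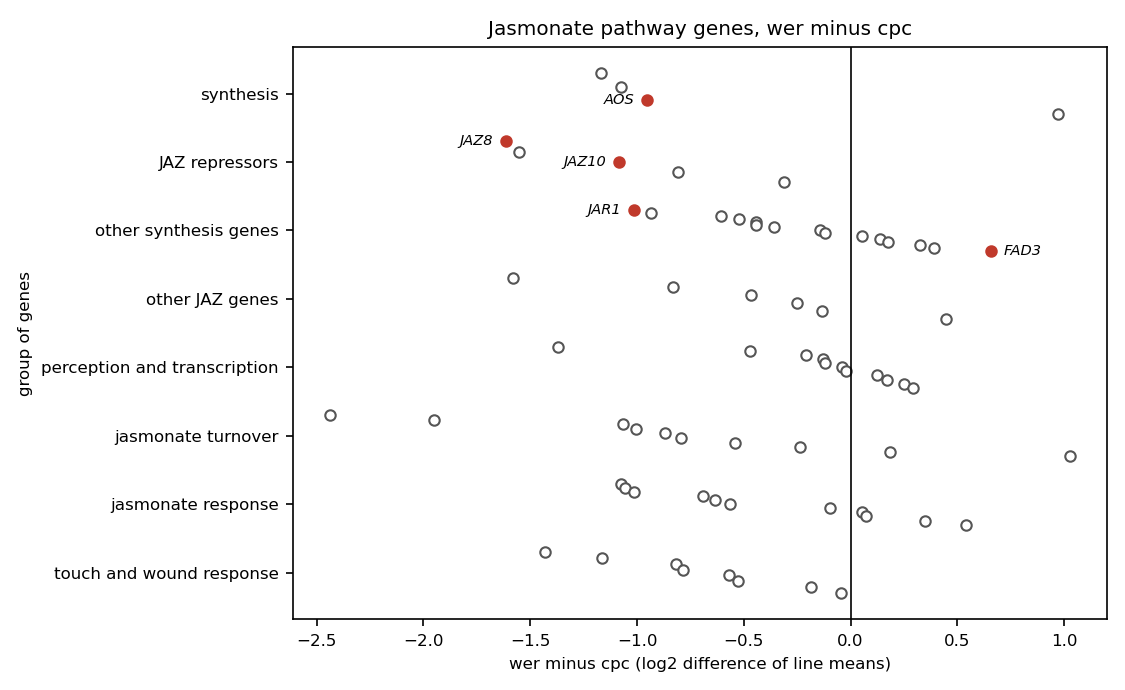
Difference wer minus cpc (log2, x axis) for each measured gene of 8 groups of jasmonate genes (y axis). Each point is a gene, and filled red points are the 5 with a BH-adjusted p under 0.05. All 5 genes of the JAZ repressor group and all 8 of the touch and wound group lie left of zero, 1 of the 6 other JAZ genes (JAZ4) lies right of it, and OPR3 is the point right of zero in the synthesis group.

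Over the 24 arrays, the 28 pairs of genes without OPR3 all had a Pearson correlation above 0, from 0.21 to 0.86 with a median of 0.52, while the median correlation of OPR3 with the other 8 was -0.05. For each gene, the median correlation with all measured genes lay between -0.02 and 0.03. Arrays of a line are not independent here, and the values are descriptions. After each line's mean was subtracted, the 28 pairs ran from -0.21 (LOX4 with JAZ6) to 0.83 with a median of 0.31, and 4 were below zero. OPR3 and JAZ10 had a correlation of 0.59 within lines, against 0.0037 over arrays. LOX3 and JAZ5 kept a correlation of 0.83 within lines (0.86 over arrays), and AOS and JAZ8 one of 0.76 (0.68 over arrays). LOX4 and JAZ8 went from 0.68 over arrays to 0.11 within lines.

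**Figure D4:**
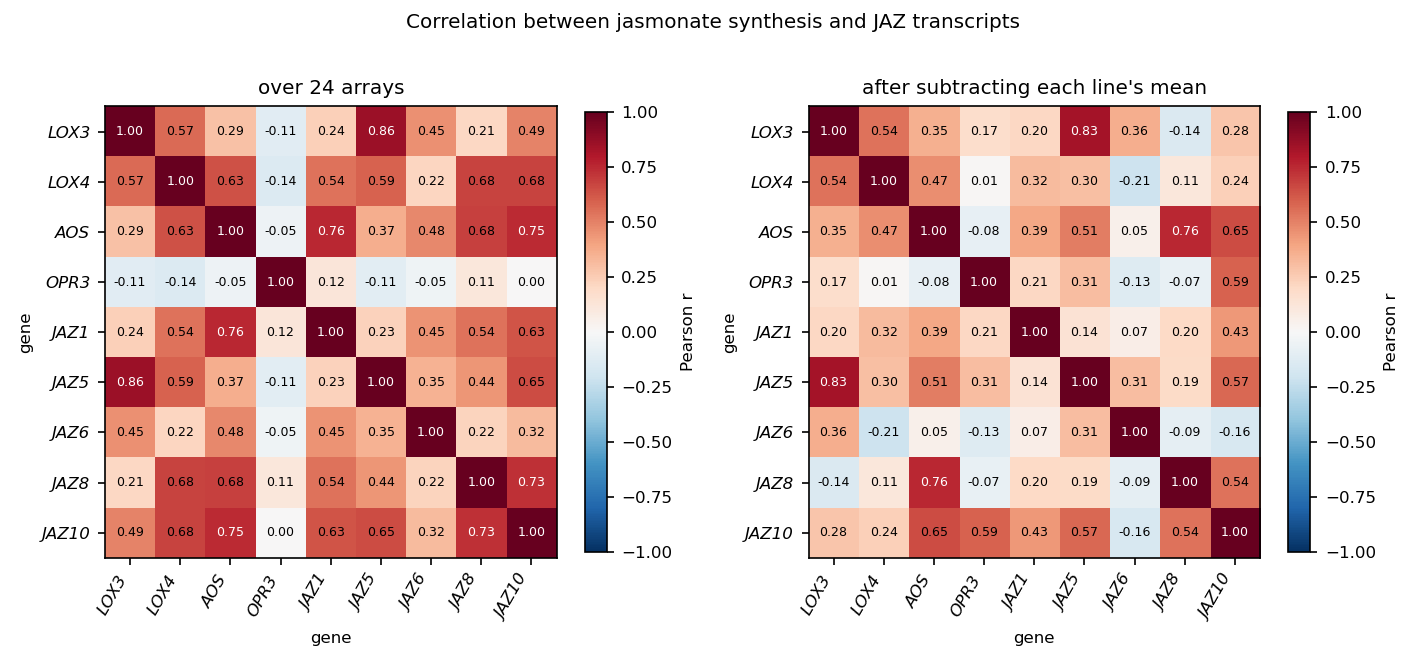
Pearson correlation between the 9 genes over 24 arrays (left) and after subtracting each line's mean (right), coloured from -1 (blue) to 1 (red). The OPR3 row is near zero on the left, and LOX3 with JAZ5 is high in both panels.

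The genes whose pattern was most like the mean of the 5 JAZ genes over the 24 arrays were WRKY18 (AT4G31800, r = 0.86), JAM1 (AT2G46510, 0.86), AT5G19110 (0.83), MGD1 (AT4G31780, 0.83) and AT1G22610 (0.81). WRKY18 is a WRKY factor of defence responses, and JAM1 is a bHLH factor known to act against MYC2. Those most like the mean of the 4 synthesis genes were AT3G45730, AT2G34930, the calmodulin-like gene CML37 (AT5G42380), AT4G36550 and AT5G40460, with r from 0.85 to 0.86. JAZ8 alone was most like JAZ9 (r = 0.83), a list chosen after the data were seen.

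The genes most like OPR3, also listed after the data were seen, were of another kind. Of the first 10, 5 had locus codes on chromosome 2, where OPR3 lies, and 3 on chromosome 4, which hold 16.3% and 14.8% of the measured genes. The closest was AT2G13970 (r = 0.88), with line means of 3.32 to 3.64 in egl3, try and cpc and 7.44 to 7.92 in gl3, wer and myb23. The P450 gene CYP706A7 (AT4G12330, r = 0.77) stood at 3.13, 3.23 and 4.01 in cpc, egl3 and try and between 8.97 and 9.40 in the other 5 lines. AT2G01090 (r = 0.79) was low in egl3 (4.84) and try (6.16) and between 8.91 and 10.44 in the other lines. OPR3 shares with these genes its low levels in egl3 and try, by the choice of genes. The 5 on chromosome 2 had codes from AT2G01090 to AT2G13970, and OPR3 (AT2G06050) lies between them by code. The 3 on chromosome 4 had codes from AT4G08110 to AT4G13690. The part of line background in these patterns was not tested.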

How the data were processed

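The authors deposited log2 values of 24 arrays, made by RMA, per the submitters' processing notes. What array and probe set definition they used is not given in the sources used here. RMA compresses differences between dim genes, and the number of arrays limits precision. Of 21504 entries, 64 were controls and left out. Titles gave each array's line. In limma 3.58.1 (R 4.3.3), lmFit and eBayes fitted the 8 line means to every array together. The procedure was run on simulated data with independent noise, without arrays that stand apart or links between replicates. That run cannot show how the fit behaves where such arrays or links are present. Moderated F tests and 28 pairwise tests, 2-sided, were adjusted by Benjamini-Hochberg (BH) over 21440 genes. The labels do not say how biological replicates were grown, so p-values reflect only the spread among arrays. A RefSeq table (TAIR10.1) gave symbols for 21222 locus codes and none for 218. None of its coordinates were used.

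The genes, lists, tests and naming rule were chosen with earlier results of these data known. Named were all measured members, COI1, MYC2, the 2 lowest F test p-values among called genes of each pathway list, up to 2 called genes per direction between wer and cpc, and the 5 genes most like each class. In 4 of 28 pairs of lines, arrays of the same replicate number had correlations of deviations from line means all over 0.1. Among them were wer and cpc (0.44, 0.22 and 0.42). Whether the numbers pair arrays was not tested against other numberings.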

Additional observations from a re-analysis of the deposited data

How the results depend on the processing

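Of the 9 genes, the F test passed 5, with 4 to 6 in the 24 runs without 1 array. It passed 2 without the arrays labelled cpc ttg2, 2 without the 4 arrays that stood apart, and 3 without cpc replicate 3 and cpc ttg2 replicate 3. The settings without 4 and without 2 arrays were chosen after seeing the data. The 28 calls over the pairs of lines became 21 to 29 in the runs without 1 array, 12 without the arrays labelled cpc ttg2 (21 pairs), 8 without the 4 arrays and 18 in fits of only the arrays compared. The 21 pairs also held 12 calls in the main fit. Of the 28, 9 held in each of 6 runs without 1 array of the pair. Between wer and cpc, 3 calls became 0 to 3 in the 6 runs without 1 array of the pair, 4 without egl3 replicate 2, 0 without the 4 arrays, 0 without the 2 arrays and 0 when fitted on its own arrays alone. Over all genes, calls in this pair went from 654 to 241 without the 4 arrays and to 234 without the 2 arrays. No count over all genes was made for these F tests, the runs without 1 array, or the fits of only the arrays compared. Fewer arrays or lines enter these fits, and the cause of the changes was not tested. The lowest line mean lay in wer for 5 to 8 genes without 1 array. With the replicate block, 4 genes passed in the F test, 28 calls were made over the pairs and 3 between wer and cpc, and the block changed no other call than that of JAZ10 in the F test. With arrays centred on their medians, quantile normalization, a filter on dim genes (log2 level of 6 on 3 arrays) or a trended robust prior, the 3 counts stayed within 1.5 times, with 30 to 38 calls over the pairs. MYC4 between wer and cpc, 0.12, turned to -0.075 without cpc replicate 3, without the 4 arrays and without the 2 arrays, and ran from -0.19 (without wer replicate 2) to 0.31 over the runs without 1 array. Detection calls were not used, so no level is called present or absent.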
